A study of Homo sapiens with 6 samples.

Results

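The zinc finger genes of human chromosome 19 were examined in Hep3B cells with and without knockdown of DAGLA. Members were the table's protein-coding genes on chromosome 19 in GENCODE release 29 whose symbol is ZNF, a number and at most 1 further letter. By this rule 239 of the 29908 genes in the table were members, of 246 such genes in the annotation. Hep3B is an established human hepatocellular carcinoma (HCC) cell line. Hep3B-KD cells had received a lentivirus with an shRNA (short hairpin RNA) that targets DAGLA, which encodes diacylglycerol lipase alpha, and Hep3B-Con cells a control lentivirus, both at a multiplicity of infection of 5 and with puromycin selection of stable cells. The sources describe the control both as a control hairpin and as an empty vector, and the medium both as DMEM with serum and as MEM-alpha. Each group held 3 libraries, called biological replicates in the series record. The comparison rests on 1 hairpin in 1 cell line, and where replicates are not separate cultures the p-values measure only the spread between these libraries.

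Most of these genes encode proteins with a row of C2H2 zinc fingers that read DNA, usually behind a KRAB domain. The KRAB domain binds TRIM28, which gathers the histone methyltransferase SETDB1, HP1 proteins and deacetylases and so silences the bound site. Many of the bound sites are transposable elements, and the genes themselves lie in clusters that grew by tandem duplication, some of them only in primates.

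Expression was measured by RNA sequencing and deposited as FPKM, which divides a gene's reads by its length and by library size. Reads recovered from the FPKM values summed to between 15861039 and 17572714 per library. Fold changes are Hep3B-KD against Hep3B-Con on the log2(FPKM + 0.1) scale, which understates the change of low genes. They were tested with limma over the 14221 genes whose mean reached 0.5 FPKM, and a gene was called at a Benjamini-Hochberg adjusted p under 0.05. Over all genes tested the median was 0.11, and the members' values are to be read against it. DAGLA fell from 9.28 ± 0.228 FPKM in Hep3B-Con to 4.62 ± 0.164 in Hep3B-KD (SD, n = 3 each, exact permutation test, two-sided p = 0.1, the smallest that 3 libraries against 3 allow). All 10 hepatocyte and HCC marker genes reached 0.5 FPKM, with a summed level of 2728 to 2775 in Hep3B-Con and 4410 to 4433 in Hep3B-KD. Of 5 fibroblast markers 3 reached 0.5 FPKM, with sums of 9.14 to 10.1 and 5.38 to 5.91, and COL3A1 and DCN were listed at or near 0. None of 3 endothelial markers reached that level, with sums of 0.194 to 0.217 and 0.268 to 0.385. Of 2 leukocyte markers PTPRC stayed at or below 0.0377 FPKM, while LYZ brought the sums to between 2.08 and 3.17 in Hep3B-Con and between 3.02 and 3.995 in Hep3B-KD. The part of the marker shifts in the results was not tested. In these bulk libraries, a larger share of cells with a transcript and more of it per cell cannot be told apart.

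The sequences directly upstream of 4 members are shown because these members had the largest rises and falls of the family. Each is the stretch of 250 bases before the start of the gene, 5′ to 3′ on its own strand, from RefSeq on GRCh38.p14. Capitals mark matches, on either strand, to 4 motifs, and neighbouring matches run together. The letters of ETS factors were taken as CCGGAAG. Those of SP factors were taken as GGGCGG. The CCAAT box bound by NFY was searched as it is spelt, and the TATA box as TATAAA.
ZNF681 (chr19:23758892-23759141, minus strand): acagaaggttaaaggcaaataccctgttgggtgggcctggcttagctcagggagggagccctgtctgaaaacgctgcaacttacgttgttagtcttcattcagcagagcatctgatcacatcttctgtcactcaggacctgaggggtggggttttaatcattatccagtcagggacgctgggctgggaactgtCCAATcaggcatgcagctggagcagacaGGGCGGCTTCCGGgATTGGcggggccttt
ZNF675 (chr19:23687213-23687462, minus strand): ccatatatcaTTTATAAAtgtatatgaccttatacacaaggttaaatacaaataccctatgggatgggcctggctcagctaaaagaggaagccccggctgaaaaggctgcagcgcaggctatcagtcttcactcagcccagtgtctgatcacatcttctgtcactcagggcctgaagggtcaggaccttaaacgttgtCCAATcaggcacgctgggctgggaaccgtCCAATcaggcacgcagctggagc
ZNF71 (chr19:56595052-56595301, plus strand): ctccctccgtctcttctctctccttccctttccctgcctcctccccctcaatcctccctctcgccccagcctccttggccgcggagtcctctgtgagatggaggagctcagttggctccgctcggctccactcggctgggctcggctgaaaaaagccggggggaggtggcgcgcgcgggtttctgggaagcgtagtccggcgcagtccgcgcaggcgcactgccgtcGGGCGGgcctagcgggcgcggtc
ZNF835 (chr19:56671758-56672007, minus strand): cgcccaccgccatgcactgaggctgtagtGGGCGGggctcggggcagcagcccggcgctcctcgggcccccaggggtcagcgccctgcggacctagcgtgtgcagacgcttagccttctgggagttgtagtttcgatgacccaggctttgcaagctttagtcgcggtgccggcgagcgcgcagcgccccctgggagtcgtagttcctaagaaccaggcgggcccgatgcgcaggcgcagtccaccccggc
ZNF681 and ZNF675, neighbours in the cluster next to the centromere, were upregulated in Hep3B-KD and shared 26 consecutive bases of these stretches, tctgatcacatcttctgtcactcagg. Their stretches held 54.4% and 50.4% G and C with 6 CpG each. ZNF71 and ZNF835, neighbours near the end of the long arm, were downregulated, and each of their stretches had 69.6% G and C with 25 CpG.

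The members were weakly expressed, with a median of 1.68 FPKM over the tested members and 4.92 over all tested genes. Over all members the mean level over the 6 libraries had a median of 1.42 FPKM, with 13 members under 0.1 FPKM, 30 from 0.1 to 0.5, 112 from 0.5 to 2, 67 from 2 to 5, 14 from 5 to 10 and 3 at 10 or more. These 3 were ZNF787, ZNF146 and ZNF317. In 9 members each library held 3 reads or fewer, the number taken as the floor of counting. Such floors and read numbers cover counting error only. The 196 members with a mean of at least 0.5 FPKM entered the test and the other 43 did not. In a fit with no filter 5 of the 43 were higher and 0 lower, 3 and 0 of them at 2-fold. That fit called 5134 of all 29908 genes higher and 3218 lower, both larger shares than among the 43. In the tested members the median Hep3B-Con level rested on 142 reads.

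As a family the members stood higher in Hep3B-KD. Their reads made up 0.249%, 0.250% and 0.240% of the library in Hep3B-Con and 0.297%, 0.297% and 0.292% in Hep3B-KD, so the groups did not overlap. The median FPKM over all 239 members was 1.13, 1.16 and 1.18 in the Hep3B-Con libraries and 1.58, 1.65 and 1.46 in the Hep3B-KD libraries. Set against the Hep3B-Con mean, the median log2 ratio of the tested members was 0.37, 0.33 and 0.32 in the 3 Hep3B-KD libraries, where that of all genes was 0.12, 0.11 and 0.11.

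Of the 196 tested members 92 were higher in Hep3B-KD (46.9%), where 36.1% of all genes tested were, and 21 were lower (10.7%), where 23.8% of all genes were. The other 83 members were not called. At a fold change of at least 2, 12 members were higher against a background of 5.89%, and 5 were lower against 2.94%. All 3 Hep3B-KD values lay above all 3 Hep3B-Con values in 103 of the 196 members and below them in 28. Over all genes tested these shares were 40.7% and 26.3%. The median log2 fold change of the tested members was 0.34, with quartiles at -0.01 and 0.63, and 145 values were above 0. The split moved with the scaling of the libraries. Centring each library on its median log ratio gave 82 higher and 33 lower members, and quantile normalization 52 higher and 41 lower, with medians of 0.23 and 0.12. Of all 14221 genes tested, the first setting called 4064 higher and 4308 lower, and the second 4270 higher and 3902 lower. Under quantile normalization the members' share of rises was thus below that of all genes.

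The 206 tested ZNF genes of other chromosomes had a similar share of rises, 96 higher (46.6%), with 34 lower (16.5%), and their median was 0.20 on the log2 scale. At 2-fold 26 of them were higher and 2 lower, beside 12 and 5 of the members. Among the 634 other tested protein-coding genes of chromosome 19 the calls leaned the other way, at 152 higher and 233 lower, and the median was -0.06. These differences between groups of genes are descriptions and were not tested. The 3 groups also differed in base composition. The median GC content of the annotated transcript was 42.4% in the members, 45.2% in ZNF genes elsewhere, 60.3% in the other genes of chromosome 19 and 47.9% in all tested genes.

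Along the chromosome the members fell into 9 clusters of at least 5 genes, split where more than 1 Mb separated neighbours or at the centromere, and 9 scattered members. On the short arm 57 of 78 members were tested, of which 30 were higher and 5 lower, and the median was 0.41 on the log2 scale. On the long arm 139 of 161 were tested, of which 62 were higher and 16 lower, and the median was 0.32. The arms thus differed little, and the clusters within an arm differed more.

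Clusters 1, 2 and 3 of the short arm had medians near or below that of all genes, and their calls moved with the scaling. Cluster 1 (chr19:2819874-2944971 in GRCh38, ZNF554 to ZNF77) had 1 of 5 tested members higher and 1 lower, and the cluster median was -0.24. Under median centring of the libraries 3 members were lower and the median was -0.35, and under quantile normalization 3 were lower and it was -0.49. The lower member was ZNF77, at 3.74, 4.20 and 3.85 FPKM in Hep3B-Con and 3.10, 2.94 and 2.97 in Hep3B-KD. Cluster 2 (chr19:7069444-9793180, ZNF557 to ZNF846) had 3 of 13 tested members higher and 3 lower, and its median of -0.01 turned to 0.02 when each library was scaled to the same FPKM sum and to -0.15 under quantile normalization, with 5 members lower. Its most expressed member ZNF317 fell by 0.61 on the log2 scale (SE 0.0328, adjusted p = 1.11e-05, limma), from 13.0, 13.6 and 13.6 FPKM to 8.74, 8.72 and 8.73. The Hep3B-KD values of ZNF317 were nearly equal and all below Hep3B-Con. Cluster 3 (chr19:11483427-12640098, ZNF653 to ZNF791) was the least expressed: 14 of its 25 members were below the filter, and its median level was 0.325 FPKM. Of its 11 tested members 4 were higher and 0 lower, and its median of 0.16 turned to -0.02 after centring within bins of GC content.

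Cluster 4, from ZNF101 to ZNF254 next to the centromere (chr19:19668796-24129961), had the highest median log2 fold change of the 9, at 0.82, though within GC bins cluster 8 stood marginally above it, at 0.425 against 0.420. It holds the ZNF91 subfamily, which expanded in primates. Of its 27 tested members 22 were higher (81.5%) and 1, ZNF101, was lower, and 7 of the 12 members at 2-fold or more lay here. Its most expressed members were ZNF738 and ZNF253. ZNF253 measured 1.93, 2.36 and 2.30 FPKM in Hep3B-Con and 5.06, 5.34 and 4.14 in Hep3B-KD. ZNF738, a short member without a zinc finger match in its protein, measured 3.32, 3.36 and 3.25 against 5.36, 4.11 and 3.92. In both genes the groups did not overlap. The call of ZNF738 was lost with any 1 Hep3B-Con library left out (adjusted p from 0.0517 to 0.0599, limma), and within GC bins its log2 fold change was 0.0082. The transcripts of this cluster had the lowest median GC content of the 9, 37.6%. Its median stayed positive under each other scaling, at 0.72 after centring on the median log ratio, 0.57 after quantile normalization, 0.42 after centring within GC bins and 0.29 within bins of length, GC and FPKM together. Under these 4 settings 20, 16, 13 and 9 of its members were called higher.

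On the long arm clusters 6 and 8 stood highest. Cluster 6 (chr19:36182060-37817300, ZNF565 to ZNF573) had 11 of 19 tested members higher and 0 lower, and the cluster median was 0.50. Cluster 8 (chr19:51571298-53580269, ZNF175 to ZNF331) had 25 of 34 tested members higher (73.5%) and 0 lower, and the cluster median was 0.60. Its most expressed member ZNF880 was at 3.64, 3.47 and 3.73 FPKM in Hep3B-Con and 4.63, 5.21 and 5.01 in Hep3B-KD. Median GC content was 39.4% in cluster 6 and 41.4% in cluster 8. After median centring of the libraries, quantile normalization and GC bins, the median of cluster 8 was 0.50, 0.37 and 0.42, and that of cluster 6 was 0.40, 0.23 and 0.21. Within bins of length, GC and FPKM together it was 0.28 in cluster 8 and 0.12 in cluster 6. The higher members then numbered 13 in cluster 8 and 5 in cluster 6, and under quantile normalization 15 and 7.

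Cluster 5 had the lowest median of the long arm and cluster 7 a median between those of clusters 9 and 6. Cluster 5 (chr19:34677639-34964049, ZNF302 to ZNF792) had 2 of 5 members higher and 1 lower, and the cluster median was -0.10, or -0.42 under quantile normalization. Its members ZNF302 and ZNF792 moved apart. ZNF302 went from 3.55, 3.75 and 3.58 to 5.81, 6.16 and 5.72 FPKM. ZNF792 went from 4.26, 4.61 and 4.23 to 2.78, 3.38 and 3.44 FPKM. Cluster 7 (chr19:43525497-45076588, ZNF575 to ZNF296) had 5 of 19 tested members higher and 1 lower, ZNF45, which measured 4.87, 4.45 and 4.70 FPKM in Hep3B-Con and 3.33, 3.05 and 3.77 in Hep3B-KD. Its median of 0.24 turned to -0.01 under quantile normalization.

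Cluster 9, the largest, reaches towards the end of the long arm (chr19:55476332-58481230, ZNF628 to ZNF446) and was split. Of its 56 tested members 16 were higher and 13 lower, and all 5 members at 2-fold or more lower lay here. Its median of 0.08 turned to -0.02 after centring on the median log ratio and to -0.10 under quantile normalization. The 13 lower members had a median GC content of 54.0% and the 16 higher members of 44.3%. At the top of the cluster by level, ZNF787 did not pass the test, at 32.3, 24.2 and 26.6 FPKM in Hep3B-Con and 26.4, 29.4 and 30.2 in Hep3B-KD. ZNF444 rose, from 8.66, 8.06 and 7.59 FPKM to 10.9, 12.7 and 11.5. Of the 7 tested scattered members 3 were higher and 1 lower.

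Neighbouring members moved somewhat more alike than pairs of members at large. Over 180 pairs of neighbours within a cluster the median absolute difference in log2 fold change was 0.44, and over all 19110 pairs of tested members it was 0.49. Both had the same sign in 130 of the 180 pairs of neighbours (72.2%) and in 11715 of all pairs (61.3%). These shares are descriptions, since pairs share genes.

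The 8 largest rises among members with separated groups were those of ZNF681, ZNF675, ZNF676, ZNF793, ZNF708, ZNF254, ZNF83 and ZNF682, of which ZNF793 lies in cluster 6, ZNF83 in cluster 8 and the others in cluster 4. ZNF681 (ENSG00000196172, chr19:23739195-23758891, minus strand, promoter shown above) was at 0.280, 0.283 and 0.435 FPKM in Hep3B-Con and 1.07, 1.35 and 1.21 in Hep3B-KD. The difference came to 1.61 on the log2 scale (SE 0.226, adjusted p = 0.000891, limma), on 32 to 141 reads per library. The lowest Hep3B-KD value was more than 2 times the highest Hep3B-Con value. ZNF675, also called TIZ and known as an inhibitor of TRAF6 signalling, rose from 0.520, 0.814 and 0.487 FPKM to 2.06, 1.98 and 1.56 (log2 fold change 1.498, SE 0.214, adjusted p = 0.000951, limma). ZNF676 rose from 0.534, 0.857 and 0.584 to 2.35, 1.96 and 1.76 FPKM, by 1.497 on the log2 scale. In ZNF676 13.6% of the transcript consists of 50-base stretches that also occur in another gene, mostly ZNF208, so its reads are less certain.

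ZNF793 was steady within each group, at 0.483, 0.494 and 0.480 FPKM in Hep3B-Con and 1.58, 1.48 and 1.45 in Hep3B-KD, a log2 fold change of 1.45 (SE 0.136). ZNF708 rose from 0.974, 1.04 and 1.01 to 2.67, 3.10 and 2.95 FPKM (log2 fold change 1.44, SE 0.0910, adjusted p = 2.14e-05, limma). The remaining 3 had log2 fold changes of 1.24 for ZNF254, 1.22 for ZNF83 and 1.12 for ZNF682. ZNF83 measured 0.914, 1.13 and 1.02 FPKM against 2.66, 2.51 and 2.34, and ZNF254 1.03, 1.28 and 1.06 against 2.73, 3.03 and 2.57. In all 8 genes every Hep3B-KD value was above every Hep3B-Con value, as the rule that chose them asks.

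The 8 largest falls chosen in the same way all lay in cluster 9. ZNF71 (ENSG00000197951, chr19:56595264-56626481, plus strand) fell by 1.69 on the log2 scale, from 4.06, 4.07 and 4.12 FPKM to 1.07, 1.27 and 1.25 (SE 0.0839, adjusted p = 8.02e-06, limma). The Hep3B-Con values of ZNF71 were almost equal and lay on up to 440 reads. Its neighbour ZNF835 fell by 1.22, from 2.75, 2.44 and 2.16 FPKM to 0.890, 1.08 and 1.01 (SE 0.124, adjusted p = 0.000187, limma). ZNF584 followed with 2.89, 3.30 and 2.49 FPKM against 1.23, 1.25 and 1.21, and ZNF837 with 4.71, 3.16 and 3.15 against 1.61, 1.86 and 1.54. Their log2 fold changes were -1.16 and -1.07. ZNF544 fell by 1.02 on the log2 scale, with 6.70, 7.48 and 6.32 FPKM against 3.23, 3.46 and 3.24, and 13.8% of its transcript is shared with a gene that overlaps it.

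The last 3 falls had log2 fold changes above -1. ZNF460 had -0.94 on low levels, where the added 0.1 FPKM shrinks the value, 1.02, 0.837 and 0.788 FPKM against 0.360, 0.391 and 0.481. ZNF524, a short protein with 4 zinc fingers that binds telomeric repeats, was uneven in Hep3B-Con, at 4.73, 2.50 and 3.27 FPKM against 1.76, 2.01 and 1.60 (log2 fold change -0.89, SE 0.223, adjusted p = 0.0126, limma). ZNF324B fell by 0.80 on the log2 scale, and 17.3% of its transcript also occurs elsewhere, mostly in ZNF324.

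Among members with a known role, 5 are described as silencers of transposable elements, picked by hand. ZNF91, which silences SVA elements, has the most zinc fingers of all members, 31. It measured 0.783, 0.647 and 0.659 FPKM in Hep3B-Con and 1.21, 1.62 and 1.35 in Hep3B-KD (log2 fold change 0.90, SE 0.161, adjusted p = 0.00268, limma), a call that was lost within bins of length, GC and FPKM together (adjusted p = 0.284). ZNF93, which silences LINE-1 elements, rose from 1.17, 1.14 and 1.38 to 1.86, 1.71 and 1.69 FPKM, by 0.48 on the log2 scale. The call of ZNF93 was lost under quantile normalization (adjusted p = 0.117, limma) and within bins of GC, of FPKM and of all properties. ZNF808 silences MER11 elements and is needed for development of the pancreas. It rose by 0.97 on the log2 scale, from 0.557, 0.540 and 0.516 to 1.23, 1.14 and 1.07 FPKM. Of its transcript 17.6% is shared with an overlapping gene and 15.5% also occurs elsewhere, mostly in ZNF611, so its reads are less certain. ZNF417 and ZNF587, a pair that silences HERV-K, were not called. They measured 2.99 ± 0.430 against 3.69 ± 0.283 FPKM and 3.84 ± 0.365 against 4.04 ± 0.0853 (SD, n = 3 each), with adjusted p-values of 0.0536 and 0.425 from limma.

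Other members of known role moved either way. ZNF350 (ZBRK1), a repressor that works with BRCA1, rose by 0.94 on the log2 scale, from 1.003, 1.12 and 0.953 to 2.39, 1.81 and 1.98 FPKM. ZNF331, an imprinted gene, rose by 0.59, from 2.76, 2.82 and 2.65 to 4.25, 4.30 and 4.004 FPKM. ZNF160, a repressor of TLR4, rose by 0.63, with 1.10, 1.28 and 1.21 FPKM against 1.80, 1.81 and 2.15. ZNF146 (OZF), which consists almost wholly of zinc fingers, was the most expressed of the rising members, at 17.8, 18.4 and 17.1 FPKM in Hep3B-Con and 30.2, 30.3 and 30.1 in Hep3B-KD. It rose by 0.76 on the log2 scale (SE 0.0320, adjusted p = 4.20e-06, limma), on 1183 to 2071 reads per library. ZNF473, a factor of histone pre-mRNA processing, fell by 0.78, from 5.30, 6.43 and 5.54 to 3.38, 3.36 and 3.15 FPKM. ZNF274, which brings SETDB1 to zinc finger genes themselves, changed least among the called, with 9.53, 9.76 and 9.55 FPKM against 8.97, 9.09 and 8.84 and a log2 fold change of -0.10 (SE 0.0323, adjusted p = 0.0338, limma). The call of ZNF274 was lost with any 1 of the 6 libraries left out (adjusted p from 0.0524 to 0.0962, limma), with the replicate block (0.0786) and at the same FPKM sum (0.0991).

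ZNF224, a repressor of aldolase A, was at 1.31, 0.923 and 1.02 FPKM against 1.70, 1.68 and 1.15 and did not pass the test (adjusted p = 0.104, limma). ZNF649 was level, at 2.66 ± 0.0129 and 2.63 ± 0.0488 FPKM (SD, n = 3 each).

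The pair of most similar proteins in a cluster is a further view of the family. ZNF587 and ZNF417 had 98.1% identical residues over the aligned proteins, and log2 fold changes of 0.07 and 0.30. ZNF799 and ZNF443 of cluster 3, at 89.1% identity, rose by 0.74 and 0.54, and ZNF611 and ZNF600 of cluster 8, at 79.7%, by 0.63 and 0.69. The calls of ZNF799, ZNF443 and ZNF600 were lost under quantile normalization (adjusted p = 0.0678, 0.0997 and 0.0549, limma) and within bins of FPKM, and that of ZNF443 also without Hep3B-KD replicate 2 (0.0578). How the counting assigned reads of such pairs is not given in the sources used here. In annotated sequence, 50-base stretches that also occur at another locus made up 34.5% of ZNF799, 34.9% of ZNF443 and 38.2% of ZNF417. Over the family, 30 members shared more than 10% of their transcript in this way and 33 overlapped another gene to that extent, and without the former 78 members were higher and 18 lower.

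Other genes of the members' usual levels also had medians above 0. All tested genes were ordered by mean FPKM and cut into 10 bins of equal size, and in each bin the members were compared with the other genes. The median difference of a member to the median of the other genes at its level was 0.11 on the log2 scale, with 110 members above and 86 below. With protein-coding genes of chromosome 19 as the reference it was 0.20, with 123 members above. The difference was not even over the levels. Between 0.776 and 1.27 FPKM the median log2 fold change was 0.48 in 45 members and 0.28 in 1377 other genes, and between 1.27 and 2.05 FPKM it was 0.43 in 49 members and 0.25 in 1373 others. In the lowest bin, from 0.5 to 0.776 FPKM, it was 0.22 in 20 members and 0.32 in the others, and between 2.05 and 3.25 FPKM it was 0.09 in 35 members and 0.24 in the others.

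GC content went with the direction of change in the members. In the 65 members with the lowest transcript GC content (33.9% to 40.7%), 48 were higher and 0 lower, the median being 0.63. In the 65 members from 40.7% to 44.5%, 33 were higher and 1 lower, the median being 0.39. In the 66 members above that, up to 71.1%, 11 were higher and 20 lower, the median being -0.07. Over the 196 members Pearson's r between GC content and log2 fold change was -0.58 and Spearman's rho -0.63, and over the 14025 other tested genes they were -0.18 and -0.21. These correlations are across genes, which share the same 6 libraries, and related members are not independent of each other.

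At the same GC content the members lay above other genes in the 5 bins of lowest GC content and below them in the 4 others that held members. In the lowest of 10 equal bins of GC content over all tested genes (25.1% to 38.4%) 27 of 29 members were higher and the median was 0.81, against 0.39 in the 1394 others, of which 53.8% were higher. In the next bin, up to 40.8%, 23 of 39 members were higher and the medians were 0.49 and 0.28. Between 47.9% and 51.1% the order was reversed, with -0.34 in 10 members and 0.05 in the others. From 51.1% to 54.2% the medians were -0.05 in 5 members and 0.04 in the others, from 57.7% to 61.4% they were -0.14 in 9 members and 0.0023 in the others, and above 61.4% they were -0.29 in 12 members and -0.02 in the others. The median difference over all members was 0.14 within GC bins and 0.04 when GC content and level were matched together, with 105 members above and 91 below. What part GC content of the libraries or their preparation has in these results was not tested.

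Members with a KRAB box match had a higher median than those without, a difference that was not tested. A KRAB box pattern was found in 171 of the 239 proteins translated from the annotation. It is strict and misses diverged boxes, among them that of ZNF224. Only 2 of 24 proteins in cluster 7 matched, and how many of the others have a diverged box was not examined. Of 140 tested members with a match 76 were higher and 10 lower, and their median was 0.41. Of 56 without a match 16 were higher and 11 lower, and their median was 0.08. The members with a match also had lower GC content, with medians of 41.7% and 45.6%. Within the 3 GC groups above, the medians with and without a match were 0.69 and 0.43, 0.38 and 0.42, and -0.01 and -0.14, so the order turned in the middle group. The number of zinc fingers, 12 on the median, had a Pearson correlation with log2 fold change of 0.15 across the 196 members.

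The members' promoters held the ETS and CCAAT letters more often than promoters at large, which is a description and was not tested. A RefSeq stretch from 250 bases before to 50 bases after the start was matched for 211 members, 176 of them tested, and for 9354 tested genes in all. CCGGAAG occurred in 46.0% of the members' stretches and in 20.4% of all, and CCAAT in 51.7% and 37.2%, each read on both strands. GGGCGG was about as common in the members as in all, 67.0% and 71.0%, while TATAAA occurred in 2.27% and 5.24%. The median log2 fold change was 0.41 in members with CCGGAAG and 0.24 without it, and 0.26 with CCAAT and 0.37 without it. Median GC content of the stretches was 60.7% in the members and 65.3% in all. A match is a description of letters and not of binding.

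The hairpin's own seed was looked for in the transcripts. Guide strands can lower transcripts that pair with their bases 2 to 8 in the 3′ untranslated region, apart from the intended target. The hairpin is given in the study's supplement by its target sequence in DAGLA, with the letters that pair with the seed in capitals.
shDAGLA target: gcgacaacaagGCCTTCAa
The seed match GCCTTCA occurred in the 3′ untranslated region of 60 of 235 members (25.5%) and of 2175 of all 15964 genes with such a region (13.6%). The longest region over a gene's protein-coding transcripts was taken, with a median length of 1717 bases in the members and 1257 in all. Such a region can cover bases that code in another transcript of the gene. In ZNF30 it had 2021 bases, beside a protein of 624 residues and 2745 exon bases in all. How many matches lie in such bases was not counted, so these are not matches in untranslated sequence alone. Of 45 tested members with the match 15 were higher and 8 lower (median 0.16), and of 149 without it 77 were higher and 13 lower (median 0.39). The same split over all genes gave 536 higher and 640 lower of 1628 tested genes with the match (median -0.04), and 3934 higher and 2465 lower of 9561 without it (median 0.11). Among the 8 largest falls ZNF524, ZNF544 and ZNF584 hold the match, and ZNF71, ZNF835, ZNF837, ZNF460 and ZNF324B do not. Without the members that hold it, 13 of 151 tested members were lower in place of 21 of 196, and 3 in place of 5 at 2-fold. These counts follow directly from the split above. The part of the seed in these falls was not tested.

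The partners through which KRAB zinc finger proteins silence were measured too. Of 42 listed genes all were tested. Of these 26 were higher (61.9%, beside 36.1% of all genes) and 7 lower (16.7%, beside 23.8%), and their median was 0.18 beside 0.11 for all genes. The lower calls numbered 12 after centring on the median log ratio and 4 under quantile normalization. Those of all 14221 genes numbered 4308 and 3902 under these settings. TRIM28, the corepressor that binds the KRAB domain, was the most abundant, with 194, 191 and 194 FPKM in Hep3B-Con and 171, 173 and 180 in Hep3B-KD. Its log2 fold change of -0.14 (SE 0.0222, adjusted p = 0.00139, limma) turned to 0.02 under quantile normalization and to 0.09 after centring within bins of length, GC and FPKM. SETDB1, the methyltransferase of H3K9, measured 9.11, 8.92 and 9.14 FPKM against 9.91, 10.1 and 10.6, a log2 fold change of 0.17 whose call was lost after centring on the median log ratio (adjusted p = 0.195, limma). ATF7IP, which stabilises SETDB1, rose by 0.55, and its relative ATF7IP2 by 1.47, from 1.34, 1.48 and 1.504 to 4.24, 4.07 and 4.19 FPKM (SE 0.0711, adjusted p = 7.34e-06, limma).

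The 3 members of the HUSH complex, which silences young elements and the zinc finger gene clusters themselves, all rose. FAM208A (TASOR) rose by 1.03 on the log2 scale, from 4.74, 4.32 and 4.01 to 8.88, 8.68 and 9.34 FPKM. PPHLN1 rose by 0.70, from 8.83, 8.84 and 9.13 to 14.6, 14.6 and 14.6 FPKM, and MPHOSPH8 by 0.66. MORC3 and ATRX, which act in heterochromatin, rose by 1.14 and 1.13, while MORC2 was not called, at 0.07. ATRX measured 1.02, 0.914 and 1.07 FPKM against 2.35, 2.49 and 2.11. Among chromatin remodellers SMARCAD1 rose by 0.86, HELLS by 0.67 and CHD3 by 0.60, while CHD4 was not called, at -0.06. The chromatin protein SMCHD1 rose by 0.69. The deacetylase genes HDAC1 and HDAC2 were not called, at -0.02 and -0.05. MTA1 and MTA2 were called lower, with log2 fold changes of -0.15 and -0.17. The transcripts of FAM208A, MORC3, ATRX, SMARCAD1, HELLS and SMCHD1 had GC contents between 36.0% and 38.2%, in the range where most members rose.

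The HP1 genes rose unequally. CBX5 (HP1 alpha) went from 25.4, 27.2 and 26.5 to 42.4, 38.8 and 41.0 FPKM, a log2 fold change of 0.62, while CBX1 rose by 0.27 and CBX3 by 0.20. The value of CBX3 turned to -0.09 after centring within GC bins. Of the histone methyltransferases of heterochromatin EHMT1 and EHMT2 rose by 0.44 and 0.35, and SUV39H1 fell by 0.35. Of the DNA methyltransferases DNMT3A rose by 0.35, and DNMT1 and DNMT3B fell by 0.12 and 0.13, where DNMT1 came to -0.0049 under quantile normalization. The genes of histone H3.3, which ATRX loads with DAXX, moved apart, H3F3A up by 0.30 and H3F3B down by 0.50, from 92.0, 96.0 and 97.8 to 66.9, 68.6 and 66.6 FPKM. Within GC bins the value of H3F3A came to 0.0014.

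**Figure D1:**
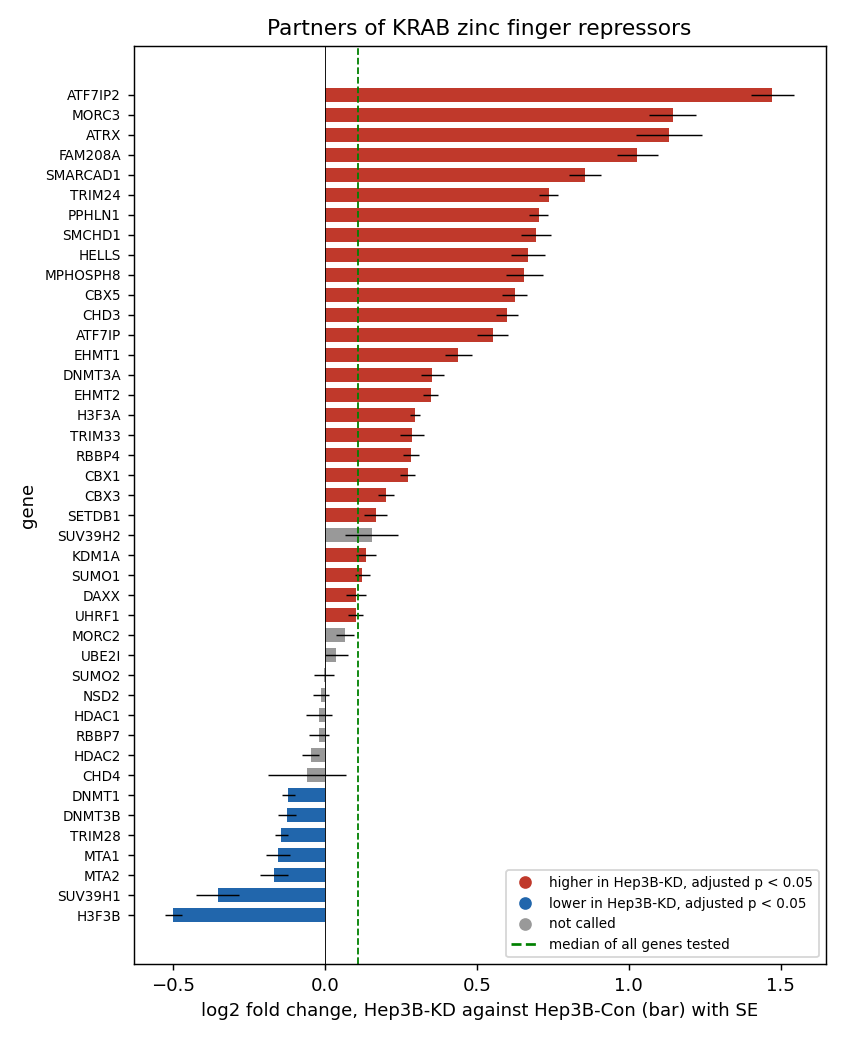
Log2 fold change (horizontal bars, Hep3B-KD against Hep3B-Con) with its standard error for the 42 partner genes, coloured by call, with a dashed line at the median of all genes tested, 0.11. ATF7IP2 at 1.47 is the highest and H3F3B at -0.50 the lowest, and TRIM28 lies at -0.14.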

How the data were processed

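RNA of 3 Hep3B-Con and 3 Hep3B-KD samples was sequenced from TruSeq mRNA libraries on an Illumina HiSeq instrument, and groups and replicate numbers were taken from the sample titles. The authors deposited FPKM values, reads divided by gene length and by library size, for 29908 genes in 1 column per library, and 0 other value columns were present. The submitters' processing notes name Bowtie2 2.0.6, TopHat2 2.0.12 and GRCh37, while the counting tool, its annotation and its use of strand are not given in the sources used here. Every FPKM value multiplied by its exon length in GENCODE release 29 (GRCh38) and by the library total came out within 0.01 of a whole read, so coordinates and lengths are from that annotation.

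Values were taken as log2(FPKM + 0.1) for genes whose mean reached 0.5 FPKM and tested with limma 3.58.1 (lmFit, eBayes with trend, no block) in R 4.3.3, Benjamini-Hochberg adjusted over all genes tested, after the script had been tested on simulated data. GC content and protein features came from GENCODE transcripts, the proteins translated from their coding sequences because no protein table was used, which departs from the plan. Tables were made in Python 3.11.15 with pandas 2.3.3, numpy 2.4.6, scipy 1.17.1 and Biopython 1.88, and figures with matplotlib 3.10.9.

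Named members were the most expressed pair of each cluster, the 8 largest rises and the 8 largest falls with separated groups, members of known role, the most similar pair of a cluster and the partner genes, of which the text describes those it turns on. The members and lists were chosen with earlier results of these data known. ZNF536, CD3E and CD68 were not analysed here. Replicate numbers were not taken as pairs, since deviations of same-numbered libraries from their group means did not correlate (-0.01, -0.07 and -0.0011). Alternatives were other filters, pseudocounts and scalings, eBayes without the trend, voom on recovered reads, a replicate block, each library left out, bins of length, GC and FPKM together, other cluster gaps and level bins, and a wider membership. Bins of 1 property at a time, matching on GC content, and leaving out members with shared stretches or the seed match were added after seeing the data.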

Additional observations from a re-analysis of the deposited data

How the results depend on the processing

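Quantile normalization, centring within bins of GC content, of FPKM, and of length, GC and FPKM together gave 52, 54, 50 and 40 members higher in place of 92. Of all 14221 genes tested these settings called 4270, 3944, 4127 and 4052 higher in place of 5133. The members' share of rises was thus near that of all genes within GC bins and below it under the other settings. Lower members numbered 33 after centring on the median log ratio and 41 under quantile normalization. Within bins of all 3 properties, of length and of FPKM they numbered 37, 32 and 41. Over all 14221 genes the lower calls were 4308 after centring on the median log ratio and 3902 under quantile normalization, in place of 3388. Within the same bins they were 4066, 4277 and 4101. Leaving out members with the seed match left 151 tested members, of which 13 were lower. Of the 92, quantile normalization kept 52, GC bins 54 with 1 turned, and all bins together 39 with 6 turned. At 2-fold, 12 higher members became 0 with a pseudocount of 1, 6 under quantile normalization, 2 within all bins, 6 within GC bins and 5 within FPKM bins, and 5 lower members became 1 with a pseudocount of 1, 8 under quantile normalization, within all bins and within FPKM bins, and 3 without the seed match. The members' median log2 fold change was 0.23 with a pseudocount of 1, 0.37 at the same FPKM sum, 0.23 centred on the median log ratio, 0.12 under quantile normalization, 0.14, 0.23, 0.10 and 0.071 within bins of GC, of length, of FPKM and of all 3, and 0.38 without the seed match. Lower partner genes numbered 12 centred on the median log ratio, 4 under quantile normalization, 13 within GC bins and 11 within length bins.

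The difference at the same level, 0.11, became 0.20 against chromosome 19 genes, 0.14 within GC bins, 0.23 within length bins and 0.037 within bins of GC and level. The KRAB difference in medians, 0.33, became 0.27 with no filter, 0.22 with a pseudocount of 1, 0.29 under quantile normalization, and 0.20, 0.28 and 0.16 within bins of GC, of FPKM and of all 3. Leaving out each library in turn gave 78 to 88 higher and 17 to 21 lower members, 12 to 16 and 4 to 6 at 2-fold, medians of 0.32 to 0.36, KRAB differences of 0.28 to 0.37, 25 to 27 higher and 6 to 7 lower partner genes, and a DAGLA log2 fold change of -1.02 to -0.97. With the replicate number as a block, 86 members were higher and 21 lower, 12 and 5 at 2-fold, with the same median of 0.34, and 26 partner genes were higher and 6 lower. Same-numbered libraries share only a number, and the block moved no count by over 1.5 times.

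ZNF787 turned to -0.045 centred on the median log ratio, and to -0.034 without Hep3B-Con replicate 2, the lowest of its values with 1 library left out, which reached 0.18. ZNF587 turned to -0.029 centred on the median log ratio, -0.086 under quantile normalization, -0.069 within all bins, and -0.039, -0.058 and -0.088 within bins of GC, of length and of FPKM. ZNF649 turned to 0.0083 at the same FPKM sum, TRIM28 to 0.020 under quantile normalization and 0.089 within all bins, and CBX3 to -0.095 within GC bins. The cause of these changes was not tested. The 43 members under 0.5 FPKM were left out by the filter, and with 3 libraries a group no single-gene permutation test can go below 0.1.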
